A study of Raphidocelis subcapitata with 493 samples.

Results

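PFTP is one of 22 per- and polyfluoroalkyl substances (PFAS) to which the green alga Raphidocelis subcapitata was exposed for 24 h. The libraries described here were chosen by compound label: all 21 libraries of the PFTP concentration series, out of 493 libraries in the study, together with the 3 DMSO control libraries of the same exposure. PFTP was given at nominal concentrations of 0.1, 0.3, 1, 3, 10, 32 and 100 µM, with 3 libraries at each, numbered P1 to P3. Every well, control wells included, held 0.33% solvent, and the controls carried DMSO without any PFAS. The design names DMSO or methanol as the solvent, and the labels do not say which of them carried PFTP. A solvent difference, if there was one, could not be told apart from PFTP in the contrasts with DMSO. The labels give PFTP by this abbreviation only, and no structure is stated for it here. The study's title names points of departure as its purpose, that is, the concentrations at which transcript levels begin to move. All wells received cells of an exponentially growing culture, and RNA was taken from pooled homogenates. The labels do not say that the libraries of a group came from separate cultures, so every p-value measures only how far these libraries lie apart, which may be technical.

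Raphidocelis subcapitata is a crescent-shaped, single-celled freshwater alga that is widely used in growth-inhibition tests of chemicals. PFAS are synthetic compounds rich in carbon-fluorine bonds, which makes them persistent, and many of them are surface-active. In a transcriptomic concentration series, genes can differ both in how far their transcripts change and in the concentration at which the change begins, and such a series is built to measure the concentration. The files give gene identifiers without names or products, so no function can be assigned to any gene below, and pathways could not be described.

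Transcripts were counted by a 3′ tag assay, which sequences only the stretch beside the poly(A) tail, so counts do not scale with the length of a gene. The table held 13429 genes, of which 9387 had enough counts to be tested over the 24 libraries. The total count per library lay between 1050536 and 1947065. The 3 libraries at 0.1 µM had 1716865 to 1947065 counts, with the highest median of all groups (1797915). Library P1 at 10 µM had 1749630 counts. The organism could not be checked by markers, since the table lists genes of 1 organism. No library repeated another: over 24 replicate pairs the chi-square per degree of freedom ran from 2.42 to 6.35. The first principal component of the log2 expression values carried 23% of the variance and placed the 8 groups in the order of concentration without overlap. Its positions ran from -38.17 to -28.16 in DMSO, -21.12 to -16.37 at 0.1 µM, -14.47 to -11.41 at 0.3 µM and -2.85 to 1.44 at 1 µM. They continued with 3.37 to 8.45 at 3 µM, 9.09 to 11.38 at 10 µM, 16.35 to 19.23 at 32 µM and 27.01 to 33.5 at 100 µM. The narrowest gap between neighbouring groups lay between 3 and 10 µM.

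Each PFTP concentration had genes called higher than in DMSO, and most of the falls were called at 100 µM. Genes were called changed at a Benjamini-Hochberg adjusted p under 0.05 in edgeR's quasi-likelihood test, fitted without a term for the library number. How many genes are called lower at the lower concentrations depends on that choice. At 0.1 µM, 104 genes (1.11% of those tested) differed from DMSO, of which 103 were higher and 1 was lower. At 0.3 µM the count was 216 (2.3%), 209 higher and 7 lower, and at 1 µM it was 352 (3.75%), 336 higher and 16 lower. At 3 µM, 494 genes were higher and 68 lower, 562 in all (5.99%). At 10 µM, 592 genes differed (6.31%), 548 higher and 44 lower. At 32 µM, 744 differed (7.93%), 597 higher and 147 lower. At 100 µM, 1729 genes differed (18.4%), 1003 higher and 726 lower. These 7 comparisons share the same 3 DMSO libraries, so a control library that stands apart moves all of them together. The numbers are relative to each library's scaling: with library totals and no scaling factor, the 100 µM split was 746 higher and 1106 lower, and the median gene moved to -0.14, against -0.02 on the log2 scale. None of the 1729 genes changed sign under that setting, and 1472 of them were called in the same direction. A count is a share of its library, so fewer cells and less RNA per cell cannot be told apart in these data.

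Up to 32 µM, a larger part of the rises than of the falls passed 2-fold. Changes of at least 2-fold made up 69 of the 103 genes called higher at 0.1 µM, 236 of 336 at 1 µM, 357 of 548 at 10 µM, 385 of 597 at 32 µM, and 455 of the 1003 at 100 µM. Among genes called lower, changes of at least 2-fold were few up to 10 µM, where they numbered 8. There were 44 at 32 µM, and 351 at 100 µM. The counts at the low concentrations depended on single libraries. At 0.1 µM the 104 calls became 35 without DMSO replicate 1, 43 without DMSO replicate 2 and 41 without replicate 1 at 0.1 µM. At 0.3 µM the 216 calls became 132 without DMSO replicate 1 and 140 without DMSO replicate 2. Leaving out DMSO replicate 1 also gave 345 calls at 3 µM, 367 at 10 µM and 495 at 32 µM. At 100 µM no single library moved the count by more than 1.5 times, and the lowest value was 1175, without replicate 2 at 100 µM.

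**Figure D1:**
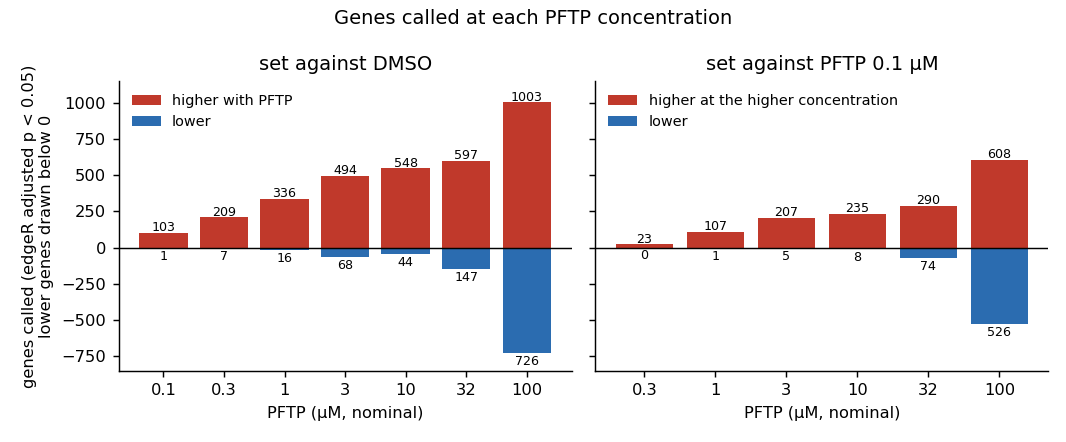
Genes called at each nominal PFTP concentration (horizontal axis, µM), as number of genes (vertical axis), higher genes drawn above 0 and lower genes below it. The left panel sets each concentration against DMSO and the right panel against 0.1 µM PFTP; in this fit, without a term for the library number, lower genes number 1 to 68 against DMSO and 0 to 8 against 0.1 µM below 32 µM, and reach 726 and 526 at 100 µM.

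Comparisons within the compound do not use the control means, and on this scale rises again outnumbered falls. The control libraries did enter the filter on low counts, the scaling and the estimate of the spread. Each comparison here uses the 0.1 µM libraries, the group with the highest median total count. Against 0.1 µM PFTP, 0.3 µM raised 23 genes (0.245% of those tested) and lowered 0. Against 0.1 µM, 1 µM raised 107 and lowered 1 (1.15%), and 3 µM raised 207 and lowered 5 (2.26%). At 10 µM the counts against 0.1 µM were 235 higher and 8 lower (2.59%), and at 32 µM they were 290 higher and 74 lower (3.88%). At 100 µM, 608 genes were higher and 526 lower than at 0.1 µM (12.1%), and changes of at least 2-fold numbered 265 and 240. Without scaling factors that last split was 498 higher and 704 lower.

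Between neighbouring concentrations, edgeR's test without a term for the library number called the fewest genes in the middle of the series. By this test, 30 genes were higher and 0 lower at 1 µM than at 0.3 µM (0.32%). No gene was called between 3 and 1 µM (0.0%), where 613 of the 9387 genes had an unadjusted p under 0.05, or between 10 and 3 µM (0.0%), where 289 did. DESeq2 called 14 genes, all higher, at 3 µM against 1 µM and 0 at 10 µM against 3 µM, so only the step from 3 to 10 µM was without calls by both tools. Between 32 and 10 µM, 1 gene was called, lower at 32 µM (0.0107%). Between 100 and 32 µM, 17 genes were higher and 24 lower (0.437%), whereas DESeq2 called 42 higher and 23 lower. Between 100 and 10 µM, 166 were higher and 197 lower (3.87%). A linear trend over the ranked concentrations (DMSO at rank 0) was called for 1707 genes (18.2%), 1004 rising and 703 falling. Over the 21 PFTP libraries alone it was called for 745 rising and 500 falling genes, 1245 of 9356 tested (13.3%). Without scaling factors the rising and falling genes numbered 844 and 988 with DMSO, and 597 and 664 without it.

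The genes called at 100 µM were followed down the series. Both lists were chosen by the comparison of 100 µM with DMSO, so their levels at 100 µM and in DMSO are a description. The 1003 genes higher at 100 µM had a median log2 fold change against DMSO of 0.29, 0.36, 0.49, 0.61, 0.67, 0.73 and 0.94 at 0.1, 0.3, 1, 3, 10, 32 and 100 µM. The 726 lower genes had medians of -0.17, -0.19, -0.23, -0.28, -0.31, -0.45 and -0.97 at the same concentrations. The median over all tested genes stayed between -0.02 and 0.02. The higher list thus stood at 71.2% of its 100 µM median at 10 µM, while the lower list stood at 31.4% there. Both lists share the DMSO libraries in every value, and how much of the low-concentration medians comes with that sharing was not tested.

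The same contrast appears when each gene is placed at the lowest concentration from which at least 50% of its 100 µM log2 change was held up to the top. Among the 1003 higher genes, 194 (19.3%) held it from 0.1 µM, 115 from 0.3 µM, 152 from 1 µM, 130 from 3 µM, 55 from 10 µM and 143 from 32 µM, and 214 (21.3%) reached it at 100 µM alone. Their median was 3 µM. Among the 726 lower genes, 20 held it from 0.1 µM, 8 from 0.3 µM, 13 from 1 µM, 45 from 3 µM and 49 from 10 µM. A further 206 (28.4%) held it from 32 µM and 385 (53.0%) reached it at 100 µM alone, which was also their median. The placement describes fitted values and carries no test. It reuses the genes, log2 changes and DMSO libraries of the medians above, so it adds no separate evidence.

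**Figure D2:**
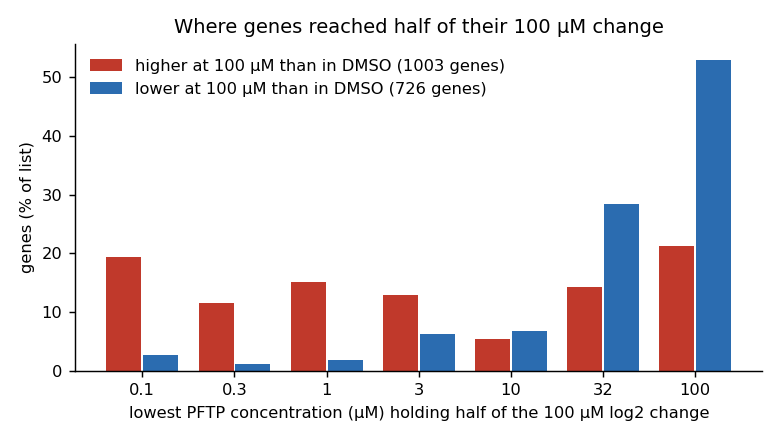
Share of the genes called at 100 µM (vertical axis, percent of each list) by the lowest nominal PFTP concentration (horizontal axis, µM) from which they held at least 50% of their 100 µM log2 change against DMSO. The 1003 higher genes are spread over the whole series, with 19.3% at 0.1 µM, whereas 53.0% of the 726 lower genes fall at 100 µM. All changes share the DMSO libraries that also chose the genes.

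The concentration from which a gene was called at every higher one gave a similar picture. Of the higher genes, 80 were called from 0.1 µM on, 85 from 0.3 µM, 108 from 1 µM, 97 from 3 µM, 58 from 10 µM, 99 from 32 µM and 476 at 100 µM alone. Of the lower genes, 0 were called from 0.1 or 0.3 µM on, 2 from 1 µM, 4 from 3 µM, 9 from 10 µM, 101 from 32 µM and 610 at 100 µM alone. Set against 0.1 µM PFTP in place of DMSO, the 608 higher genes had their onset at 0.3 µM in 23 cases, at 1 µM in 70, at 3 µM in 72, at 10 µM in 26, at 32 µM in 64 and at 100 µM in 353. The onsets against DMSO share the 3 control libraries. A gene called at one concentration and not at another is not shown to differ between them.

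The levels in other libraries were read for the 608 higher and 526 lower genes of the comparison of 100 with 0.1 µM. Their mean log2 CPM (scaled counts, CPM, with a prior count of 2) was taken in the 18 libraries whose group means this comparison did not use. Those libraries did enter the filter on low counts, the scaling and the estimate of the spread. Relative to DMSO, the higher genes lay 0.35, 0.64, 0.79, 0.86 and 1.00 above on the log2 scale at 0.3, 1, 3, 10 and 32 µM. The lower genes lay at 0.00, -0.08, -0.13, -0.16 and -0.37 at the same concentrations. The difference of the list means, higher minus lower, was -0.35, -0.26 and -0.19 in the DMSO libraries P1 to P3. It was 0.08, 0.10 and 0.07 at 0.3 µM, 0.45, 0.51 and 0.41 at 1 µM, and 0.72, 0.65 and 0.61 at 3 µM. It reached 0.76, 0.74 and 0.77 at 10 µM and 1.09, 1.05 and 1.16 at 32 µM. The groups followed the order of concentration in this difference and none of the 6 overlapped. In the libraries whose difference chose the genes it was -0.20, -0.27 and -0.26 at 0.1 µM, inside the range of the DMSO libraries, and 1.96, 1.97 and 1.95 at 100 µM.

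**Figure D3:**
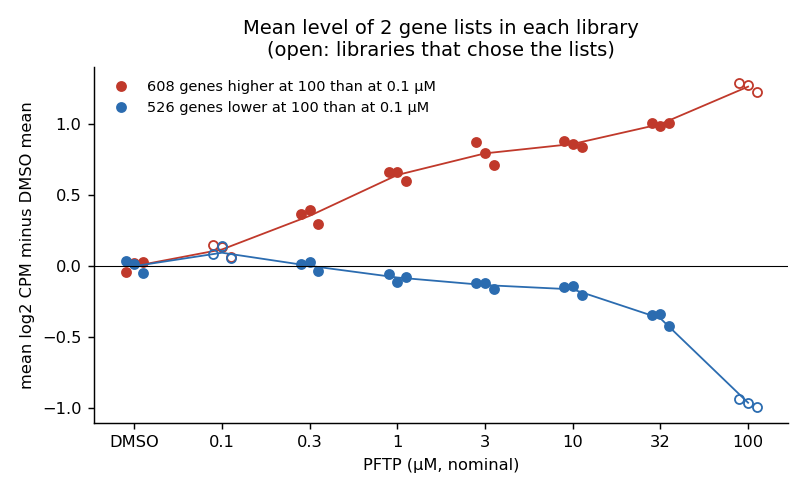
Mean log2 CPM of 608 genes higher and 526 genes lower at 100 than at 0.1 µM PFTP, minus the DMSO mean (vertical axis), in each library by nominal concentration (horizontal axis, µM; lines join group means). Open points are the libraries whose difference chose the genes; in the filled ones the higher genes lie 0.35 above DMSO at 0.3 µM and 1.00 at 32 µM, and the group means of the lower genes reach no lower than -0.16 before 32 µM.

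Measured as a share of all counts, the 1003 higher genes held 14.5% ± 0.543 of each library in DMSO (SD, n = 3). Their share was 16.3%, 17.1%, 17.9%, 18.9%, 19.1% and 20.3% at 0.1, 0.3, 1, 3, 10 and 32 µM, and 22.6% ± 0.263 in the 100 µM libraries. The 726 lower genes held 7.24% ± 0.24 in DMSO, then 6.58%, 6.48%, 6.29%, 6.04%, 5.95% and 5.27%, and 3.96% ± 0.163 at 100 µM. The lists were chosen by the first and last of these values. The higher genes had a median level of 102 CPM at 100 µM, against 45.5 CPM in DMSO, and the lower genes 25.2 CPM at 100 µM, against 48.5 CPM in DMSO. The median of all tested genes was 35.4 CPM at 100 µM and 35.9 CPM in DMSO.

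Single genes are shown for their course along the series. They were the first by size of change against DMSO among 696 genes (405 higher, 291 lower) that were called in the same direction at 100 µM against DMSO and against 0.1 µM, with no overlap of the 100 µM and DMSO libraries. Since the files pair no identifier with a name, only the first 2 in each direction are given.

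Rsub_02656 stood above the DMSO libraries of its exposure from the bottom of the series. It had 7.58, 9.57 and 9.93 CPM in the DMSO libraries P1 to P3, 25.7, 24.9 and 17.2 CPM at 0.1 µM, and 64.1, 81.5 and 47.5 CPM at 0.3 µM. At 1 µM it had 205, 271 and 183 CPM, at 3 µM 250.0, 299 and 313 CPM, and at 10 µM 227, 261 and 338 CPM. Its levels were 254, 353 and 415 CPM at 32 µM and 436, 416 and 422 CPM at 100 µM. No PFTP library overlapped these DMSO libraries. The concentrations up to 1 µM did not overlap each other, while the libraries at 3, 10 and 32 µM did. A DMSO group of another exposure averaged 21.7 CPM of the library total, near the level at 0.1 µM. The log2 fold change against DMSO was 1.31 (SE 0.31, edgeR adjusted p = 0.021) at 0.1 µM, 2.80 (SE 0.28, adjusted p = 1.76e-08) at 0.3 µM and 4.58 (SE 0.25, adjusted p = 6.27e-15) at 1 µM. At 100 µM it was 5.53 (SE 0.25, adjusted p = 1.15e-17), a 46.2-fold rise.

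Rsub_09454 stood highest at 100 µM. Its levels were 24.4, 28.1 and 56.5 CPM in DMSO, 71.4, 52.9 and 68.0 CPM at 0.1 µM, 116, 78.8 and 63.6 CPM at 0.3 µM, and 69.0, 95.4 and 61.2 CPM at 1 µM. They were 78.5, 66.1 and 102 CPM at 3 µM, 182, 92.9 and 103 CPM at 10 µM, 238, 182 and 152 CPM at 32 µM, and 484, 400.4 and 493 CPM at 100 µM. The 100 µM libraries stood above all others, and those from 0.1 to 3 µM overlapped each other. Against DMSO its log2 fold change was 1.25 (SE 0.33, edgeR adjusted p = 0.0496) at 0.3 µM, 1.04 (SE 0.33, adjusted p = 0.108) at 1 µM and 2.40 (SE 0.32, adjusted p = 2.17e-05) at 32 µM. At 100 µM it was 3.66 (SE 0.32, edgeR adjusted p = 3.79e-08) against DMSO and 1.84 (SE 0.28, adjusted p = 5.1e-04) against 10 µM.

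Rsub_09628 fell at 100 µM, and its replicates were wide apart at lower concentrations. It had 190.2, 88.0 and 99.3 CPM in DMSO, 248, 194 and 125 CPM at 0.1 µM, 216, 533 and 113 CPM at 0.3 µM, and 186, 127 and 83.3 CPM at 1 µM. It had 185, 131 and 56.3 CPM at 3 µM, 218, 134 and 42.2 CPM at 10 µM, 38.2, 23.6 and 6.16 CPM at 32 µM, and 8.87, 9.81 and 7.84 CPM at 100 µM. From DMSO to 10 µM the groups overlapped, and the 32 and 100 µM libraries lay below every one of them. The log2 fold change against DMSO was -3.81 (SE 0.91, edgeR adjusted p = 7.4e-03) at 100 µM and -2.41 (SE 0.76, adjusted p = 0.0639) at 32 µM. The call at 100 µM was lost when all libraries numbered 1, or all numbered 2, were left out, with log2 fold changes of -3.39 and -4.09.

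Rsub_12042 had a similar course. Its levels were 227, 131 and 144 CPM in DMSO, 247, 324 and 306 CPM at 0.1 µM, 212, 456 and 209 CPM at 0.3 µM, and 197, 163 and 203 CPM at 1 µM. They were 149, 185 and 148 CPM at 3 µM, 146, 171 and 148 CPM at 10 µM, 70.7, 49.6 and 31.7 CPM at 32 µM, and 28.6, 35.7 and 28.2 CPM at 100 µM. The 32 and 100 µM libraries lay below all others. The log2 fold change against DMSO was 0.81 (SE 0.27, edgeR adjusted p = 0.214) at 0.1 µM, -1.70 (SE 0.30, adjusted p = 7.52e-04) at 32 µM and -2.43 (SE 0.33, adjusted p = 2.16e-05) at 100 µM.

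**Figure D4:**
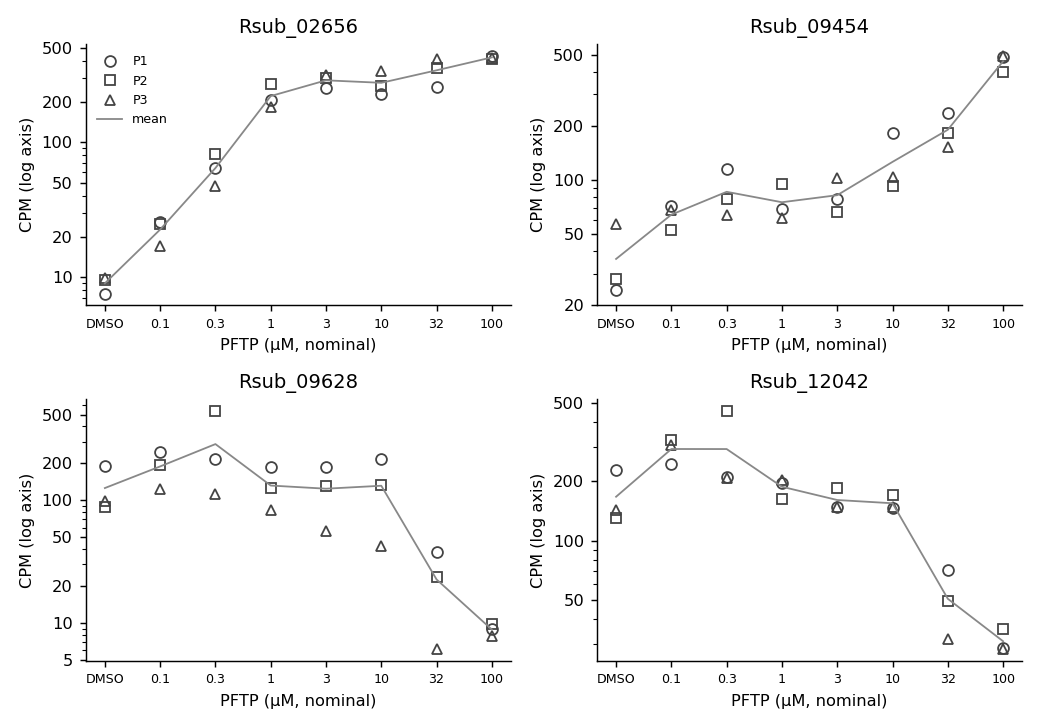
Level of 4 genes in each library (vertical axis, CPM on a log scale) by nominal PFTP concentration (horizontal axis, µM); symbols give the library number and the line joins group means. Rsub_02656 stands above DMSO from 0.1 µM, Rsub_09454 is highest at 100 µM, and Rsub_09628 and Rsub_12042 drop at 32 and 100 µM.

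The same 4 genes were read across the rest of the study as CPM of the library total, with no test. At its top concentration PFTP gave Rsub_02656 a mean of 401 CPM. PF4OPeA, the other compound of the exposure, gave 134 CPM. The other 20 compounds gave 5.67 to 23.6 CPM at their highest concentrations, which were 100 µM, or 5 µM for PFTrDA. The 11 DMSO groups had 2.82 to 21.7 CPM. Rsub_09454 had 434 CPM with PFTP, 116 CPM with PF4OPeA, 0.286 to 61.1 CPM with the other compounds and 19.3 to 88.9 CPM in the DMSO groups. For these risers PFTP and PF4OPeA gave the highest levels, though both were chosen for their rise with PFTP. Rsub_09628 had 8.34 CPM with PFTP, 35.6 CPM with PF4OPeA, 1.53 to 1764 CPM with the other compounds and 5.4 to 1180 CPM in the DMSO groups. Rsub_12042 had 29.1 CPM with PFTP, 90.7 CPM with PF4OPeA, 8.44 to 2038 CPM with the other compounds and 3.97 to 1324 CPM in the DMSO groups. The levels of both genes that fell with PFTP lay inside the range that control groups of other exposures spanned.

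Some genes had no counts in the controls. Exactly 5 genes had 0 counts in all 3 DMSO libraries and at least 10 in each 100 µM library, where they had 11 to 32 counts. No gene showed the reverse. With a floor of 3 counts over the DMSO group (0.756 CPM), their 100 µM means of 13.0 to 21.6 CPM were at least 17.2-fold to at least 28.6-fold higher. The floors cover counting error only. Of the 5 genes, 4 had at least 5 counts in all 3 libraries at 3, 10, 32 and 100 µM, and the remaining one had a summed count of 61 at 100 µM and of 0 to 4 at every lower concentration. With at most 3 counts summed over DMSO in place of 0, there were 19 such genes and 3 in the reverse direction, and edgeR called all 19 higher at 100 µM. Since this choice used the comparison with DMSO, those calls add no evidence. The median level of the 19 was 0.504 CPM in DMSO, 1.47 CPM at 0.1 µM, 2.01 CPM at 0.3 µM, 11.1 CPM at 1 µM, 16.2 CPM at 3 µM, 17.8 CPM at 10 µM, 19.2 CPM at 32 µM and 19.97 CPM at 100 µM. Most of their increase thus lay between 0.3 and 3 µM. At an equal depth of 1050536 counts, 10780 ± 31.3 genes were detected at 100 µM and 10970 ± 37.1 in DMSO (SD, n = 3 each). The difference of -195 genes had an exact two-sided permutation p of 0.1, the smallest that 3 against 3 libraries allow.

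PF4OPeA was tested in the same exposure, which allows a direct contrast at 7 matched nominal concentrations without the control means. The control libraries did enter the filter on low counts, the scaling and the estimate of the spread. Few or no genes were called between the compounds below 100 µM. By edgeR's test over 9665 genes, 0 genes differed at 0.1 µM (0.0%; 754 at an unadjusted p under 0.05, 20 by DESeq2), at 1 µM (0.0%; 980, and 1 by DESeq2), at 3 µM (0.0%; 866, and 1 by DESeq2) and at 10 µM (0.0%; 720, and 11 by DESeq2). At 0.3 µM, 5 genes were higher and 2 lower with PFTP (0.0724%), and at 32 µM 19 were higher and 10 lower (0.3%). At 100 µM, 326 genes were higher and 316 lower with PFTP (6.64%), and changes of at least 2-fold were 67 higher and 188 lower. Without scaling factors the 100 µM split was 148 higher and 535 lower, and that at 32 µM 9 and 12. Adjusted over the 7 concentrations together, 213 genes differed at 100 µM and 36 at 32 µM. The median 95% interval of a gene's log2 difference, without adjustment for the number of genes, had a half-width of 0.51 to 0.56. Differences below that size would mostly have gone unseen, and a call after adjustment mostly needs a larger one. The genes called at 0.3 and 32 µM had median sizes of 1.245 and 0.9. The missing calls do not show that the compounds act alike. Against the same 3 DMSO libraries, PF4OPeA in its own table had 0 genes called at 0.1, 0.3 and 1 µM (0.0%). It had 28 at 3 µM (0.294%) and 21 at 10 µM (0.22%). At 32 µM it had 22 (0.231%), and at 100 µM 16 (0.168%).

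On a score of genes chosen with PFTP, the 3 libraries of a group lay closer together with PFTP than with PF4OPeA. The score was taken as above from the 608 higher and 526 lower genes, here as mean log2(CPM + 1) on a scale common to both compounds. The SD between the 3 libraries of a concentration was 0.01 to 0.06 with PFTP and 0.17 to 0.57 with PF4OPeA. At 100 µM the score averaged 2.00 with PFTP, whereas the PF4OPeA libraries P1, P2 and P3 had -0.11, 0.40 and 0.81. At 3 µM the PFTP mean was 0.66, and the PF4OPeA libraries had -0.09, 0.25 and 1.03. At 0.1 µM the PFTP mean was -0.28, and the PF4OPeA libraries had -0.37, -0.13 and -0.06. The DMSO libraries had -0.39, -0.30 and -0.23. PF4OPeA library P3 was the highest and P1 the lowest of the group at 7 of 7 concentrations. With PFTP, P1, P2 and P3 were the highest at 2, 3 and 2 concentrations and the lowest at 0, 3 and 4. From 3 µM upward, each PF4OPeA library numbered P1 stayed below 0, and those numbered P3 lay at 0.61 to 1.03. The genes were chosen on PFTP libraries and not on PF4OPeA ones. Such a choice favours genes with little spread among the PFTP libraries, so the SDs of the compounds are not on equal terms. Over all tested genes, the median half-width of the 95% interval against DMSO was 0.51 to 0.54 with PFTP. With PF4OPeA in its own table it was 0.53 to 0.56.

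**Figure D5:**
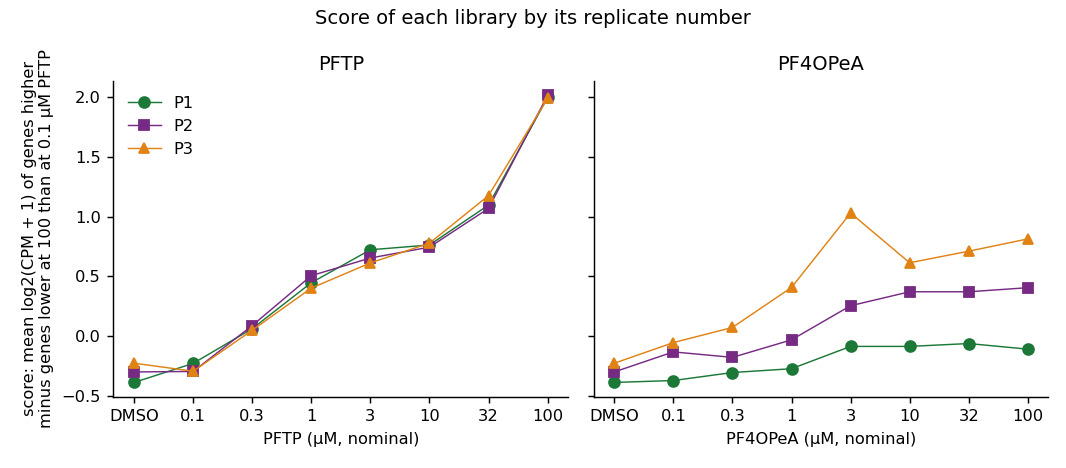
Score of each library, the mean log2(CPM + 1) of 608 genes higher minus that of 526 genes lower at 100 than at 0.1 µM PFTP (vertical axis), by nominal concentration (horizontal axis, µM), with a line for each library number. The PFTP lines on the left run together and reach 2.00 at 100 µM, whereas the PF4OPeA lines on the right stay apart in the same order at 7 of 7 concentrations.

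Among the single genes, Rsub_02656 showed such a spread with PF4OPeA. It had 40.7, 149 and 207 CPM in the PF4OPeA libraries P1 to P3 at 100 µM, and 54.0, 81.8 and 354 CPM at 3 µM. Its log2 difference, PFTP minus PF4OPeA, was 1.71 at 100 µM (SE 0.54, edgeR adjusted p = 0.0528) and 0.85 at 3 µM (SE 0.53, adjusted p = 0.679). For Rsub_09454 the difference at 100 µM was 2.02 (SE 0.42, edgeR adjusted p = 3.07e-03), and for Rsub_12042 it was -1.53 (SE 0.47, adjusted p = 0.0434). Leaving out the PF4OPeA libraries numbered 3 raised the number of genes that differed between the compounds to 26, 100, 110, 45, 52, 109 and 672 from 0.1 to 100 µM. Without those numbered 1, the counts were 2, 7, 3, 0, 0, 4 and 253, and without those numbered 2 they were 0, 0, 0, 1, 0, 27 and 455. What sets the PF4OPeA libraries of different numbers apart was not tested. PF4OPeA totals ran from 695566 to 2470296 counts.

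PFTDoDA and FHxSA came from other exposures with their own DMSO libraries, and were picked for comparison by their numbers of changed genes in earlier results of these data. The difference between the change with PFTP and that with PFTDoDA was called for 1836 of 9843 genes (18.7%), 887 toward higher and 949 toward lower with PFTP. Against FHxSA it was called for 1526 of 9859 genes (15.5%), 841 toward higher and 685 toward lower. The splits without scaling factors were 678 and 1170 for PFTDoDA, and 594 and 1003 for FHxSA. The median half-width of the 95% intervals was 0.77 and 0.73 on the log2 scale, wider than in the contrast within one exposure.

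The genes that PFTP moved at 100 µM were moved in the same direction by these compounds in a minority of cases. Of the 1003 higher genes, 900 were tested with PFTDoDA and 202 of them (22.4%) were called higher, against 12.4% of all genes tested there. These 202 made up 17.1% of the genes that PFTDoDA raised. Another 85 (9.4%) were called lower, against 10.9% of all tested. Of the 726 lower genes, 703 were tested and 147 (20.9%) were called lower, against 10.9% of all tested. These 147 made up 14.2% of the PFTDoDA falls. Another 59 (8.4%) were called higher, against 12.4% of all tested. With FHxSA, 99 of 906 higher genes (10.9%) were called higher, against 7.1% of all tested. A nearly equal number, 91 (10.0%), were called lower, against 8.3% of all tested, so this list was above the background in both directions. Of 714 lower genes, 115 (16.1%) were called lower, against 8.3% of all tested, and 39 (5.5%) were called higher, against 7.1%. The median log2 fold changes of the higher and lower lists were 0.16 and -0.17 with PFTDoDA, and 0.07 and -0.08 with FHxSA.

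Among the 4 genes, Rsub_12042 changed with opposite signs with PFTP and PFTDoDA, each against its own DMSO. It changed by -2.43 (SE 0.33) with PFTP, by 2.87 (SE 0.46, edgeR adjusted p = 1.21e-06) with PFTDoDA and by -0.85 (SE 0.15, adjusted p = 1.46e-04) with FHxSA on the log2 scale. Its mean level at 100 µM was nearly the same, 29.1 CPM of the library total with PFTP and 29.6 CPM with PFTDoDA. The control groups differed, with 172 CPM in the DMSO of PFTP and 3.97 CPM in that of PFTDoDA. The opposite signs thus go with unlike control levels, and opposite regulation by the compounds is not shown. The difference of the changes was -5.31 (SE 0.57, adjusted p = 1.32e-09) against PFTDoDA and -1.59 (SE 0.39, adjusted p = 4.68e-03) against FHxSA. Rsub_02656 changed by 5.53 with PFTP, against 0.81 (SE 0.42, adjusted p = 0.162) with PFTDoDA and 0.24 (SE 0.41, adjusted p = 0.762) with FHxSA by edgeR. The difference of the changes for Rsub_02656 was 4.72 (SE 0.53, adjusted p = 1.84e-10) against PFTDoDA and 5.29 (SE 0.58, adjusted p = 5.9e-09) against FHxSA.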

How the data were processed

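The authors deposited whole-number counts per gene for each library, and these raw counts were used as deposited. The software named in the submitters' processing notes is STAR 2.7.10a, featureCounts 2.0.6, fastp 0.23.2 and SAMtools 1.15.1. Not given in the sources used here are the build, the annotation and any merging of reads by their molecular identifier. Without such merging a count includes copies made by amplification, and its precision is below that of its size. Overlapping genes and close copies may have been credited with each other's reads. Groups came from the labels, and 0 columns of the table were left unmapped.

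The tests used edgeR 4.0.16 under R 4.3.3, with TMM scaling, genes kept by filterByExpr, and robust glmQLFit and glmQLFTest, in 1 fit of the 24 libraries, with p-values adjusted by Benjamini-Hochberg over all genes of a contrast. Contrasts with PF4OPeA, PFTDoDA and FHxSA were fitted on the joined tables of both compounds. The steps were tested on simulated data. The alternatives were RLE size factors, library totals, no filter, DESeq2 1.42.0, the replicate number as a block, and leaving out libraries. Those leaving out PF4OPeA libraries alone, the block nested in exposure, and the block and DESeq2 for steps between PFTP concentrations were chosen after seeing the data. Named genes were the first 2 in each direction by size of change at 100 µM against DMSO, among genes called against both DMSO and 0.1 µM, without overlap of libraries and with at least 10 counts on average in both groups. The libraries, comparisons and rules were chosen with earlier results of these data known. Without product names, the planned gene lists could not be matched. The lowest planned dilution, the copper sulfate controls, methanol controls and the phenotype plate were not analysed here. The protocol gives the 3 µM level as a slightly higher dilution step, and the label value is used.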

Additional observations from a re-analysis of the deposited data

Results flagged for a closer look

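The responses to PFTP and to compounds of other exposures at 100 µM differed by a test of the difference itself. The change with PFTP differed from that with PFTDoDA for 1836 genes by edgeR at an adjusted p under 0.05. It differed from the change with FHxSA for 1526 genes by the same test. Each change was taken against the DMSO libraries of its own exposure, and differences between the exposures beyond these controls cannot be told apart from those between the compounds.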

How the results depend on the processing

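Where they were run, RLE size factors and library totals kept the total of each comparison within 1.5 times. They were not run between neighbouring concentrations, for 100 against 10 µM, or for 0.3, 1 and 3 µM against 0.1 µM. Library totals moved the splits given above, and also the genes lower than DMSO at 10 µM, 73 against 44. With the replicate number as a block, the counts against DMSO were 338, 450, 576, 963, 1024 and 1219 from 0.1 to 32 µM, and at 100 µM the count stayed within 1.5 times. The falls took a larger part of them: 76, 83, 98, 246, 243 and 386 genes were lower with the block, against 1, 7, 16, 68, 44 and 147 without it. Rises still outnumbered falls at each of these concentrations, and genes with a lower onset at 10 µM or below numbered 86, against 15. Against 0.1 µM the block gave 37, 209, 364, 459, 703 and 1866 from 0.3 to 100 µM, with 100 lower genes at 10 µM, against 8. Between neighbouring concentrations it gave 55, 61, 0, 25 and 320 for the steps up to 1, 3, 10, 32 and 100 µM, and 1030 between 100 and 10 µM. Between PFTP and PF4OPeA it gave 56, 47, 4, 16, 13, 179 and 1041 from 0.1 to 100 µM. Libraries of 1 number deviated together (correlations of 0.034 to 0.294 over 84 pairs, 60 of them over 0.1), and each library correlated best with its own number in 168 of 168 comparisons, a hint from the data and not from the design, since the labels do not say what the number marks. DESeq2 called 20, 24, 1, 1, 11 and 78 genes between PFTP and PF4OPeA from 0.1 to 32 µM, adjustment over all 7 concentrations 16, 22, 5, 7, 9 and 213 at 0.1, 0.3, 1, 3, 10 and 100 µM, and no filter 1 at 1 µM. Between neighbouring concentrations DESeq2 gave 14, 2 and 65 for the steps to 3, 32 and 100 µM. With genes of at least 2-fold change alone, the list difference between 32 µM and DMSO was 2.21, against 1.37 with all of them. The causes were not tested.

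Leaving out libraries gave 14 to 122, 79 to 225, 163 to 368, 268 to 500, 291 to 535, 383 to 699 and 775 to 1471 calls against DMSO from 0.1 to 100 µM. The lowest value of each came without all libraries numbered 2, which leaves fewer libraries in every group. The ranges were 110 to 159, 175 to 256 and 441 to 806 against 0.1 µM at 10, 32 and 100 µM. For the trend they were 1009 to 1140 with DMSO and 664 to 825 without. Between PFTP and PF4OPeA they were 0 to 26, 0 to 100, 0 to 110, 0 to 61, 0 to 64, 3 to 109 and 157 to 672. The differences from PFTDoDA and FHxSA ran from 774 to 1508 and 551 to 1040. Genes with an onset at 10 µM or below numbered 239 to 417, against 443 with all libraries. The log2 fold changes of the 4 genes kept their sign, within 5.42 to 5.61 for Rsub_02656, 3.44 to 4.13 for Rsub_09454, -4.09 to -3.39 for Rsub_09628 and -2.68 to -2.09 for Rsub_12042. With 3 libraries a group, of 1050536 to 1947065 counts each, small changes of low genes could not be seen.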

Other observations

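The next principal components of the 24 libraries carried 9.84% and 7.68% of the variance. On the one with 9.84%, the DMSO libraries P1 to P3 lay at -5.73, -7.22 and -11.27. In the same order, the 3 µM libraries lay at 25.53, 9.11 and -1.01, and the 100 µM libraries at -5.93, -21.62 and -25.93. The position fell from P1 to P2 to P3 in every group, and the labels do not say what the number marks.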
